A study of Mus musculus with 3 samples.

Results

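The interleukin-1 (IL-1) family was followed in cultured mouse intrahepatic biliary epithelial cells (BECs), the cells that line the bile ducts, after induction of cellular senescence. The family was taken as 10 genes fixed by symbol: the cytokines *Il1a*, *Il1b*, *Il18* and *Il33*, the receptor antagonist *Il1rn*, the receptor chains *Il1r1*, *Il1r2*, *Il1rap* and *Il1rl1*, and the processing protease *Casp1*. Through the array's gene annotation 9 of the 10 genes were found on 10 of 23473 gene probes, since *Il1rap* had 2 probes. *Il1rl1*, the receptor of IL-33, carried no probe under its symbol and is not analysed here. RNA was measured on 3 one-colour 3D-Gene arrays, 1 for BECs cultured in serum depleted medium, 1 for BECs treated with 200 μM glycochenodeoxycholic acid (GCDC), a conjugated bile acid, and 1 for control BECs. Treatments lasted 4 to 7 days per the labels, while the study's text names 7 days for the array experiment. The BECs were isolated from female BALB/c mice aged 8 weeks, and the culture medium held Nu-serum, EGF, insulin, forskolin and antibiotics. RNA of 2 independent experiments was mixed for each array. With 1 array a condition, differences have no replicate check here and were not tested, and precision is limited by how few arrays there are. The study's methods mention a second microarray on other samples that again showed its major upregulated genes. Those arrays are not among the 3 read here.

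IL-1α, IL-1β, IL-18 and IL-33 are cytokines made without a classical secretion signal and released by damaged or activated cells. IL-1β and IL-18 are made as precursors that caspase-1 cuts into the active form inside inflammasomes, while IL-1α and IL-33 are held in the cell and act as alarmins, signals of damage to neighbouring cells. IL-1 binds IL1R1, which pairs with the accessory chain IL1RAP and signals through MyD88 to NF-κB. IL1RN occupies IL1R1 without signalling, and IL1R2 is a decoy that binds IL-1 and cannot signal. IL-1α at the cell surface is a known upstream driver of the senescence-associated secretory phenotype in other senescent cells.

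A level is the intensity of a probe above the blank spots of its array, scaled so that the median valid probe of each array is 25. A probe was valid where it lay more than 2 SD above the blanks. The SD of the blanks was worth a level of 0.683 in serum depletion, 0.589 in GCDC and 0.500 in control, and valid probes made up 86.1%, 87.9% and 89.2% of each array. Of the 96 negative control spots of each array, 28 in serum depletion, 30 in GCDC and 39 in control also passed this limit. A valid probe is thus not always a detected transcript. A stricter mark is the brightest of these spots, which reached levels of 4.10 in serum depletion, 2.80 in GCDC and 2.72 in control. Repeated positive control spots varied within an array by 8.93% to 14.4% (CV, 24 spots each). Changes of more than 2-fold are written as rises or falls, and ranges given with a log2 ratio shift both levels by 2 SD of the blanks, which covers error of the background only. The BEC label was checked on the bile duct keratins *Krt7* and *Krt19*, at levels of 19913 and 11882 in serum depletion, 24861 and 27738 in GCDC, and 14725 and 13442 in control. *Krt19* was thus past 2-fold higher in GCDC (log2 ratio 1.05), while *Krt7* was within 2-fold in both treatments. All 10 cholangiocyte markers on the array were valid on every array, with summed levels of 90790 in serum depletion, 133860 in GCDC and 84993 in control, but they did not move together. *Aqp1*, a water channel of bile ducts, fell in both treatments, with a level of 229 in serum depletion and 86.3 in GCDC, against 776 in control (log2 ratios -1.76 and -3.17), and the anion exchanger *Slc4a2* was lower within 2-fold (-0.54 and -0.78). Of 9 hepatocyte markers 8 were compared. In serum depletion 2 rose and 6 lay within 2-fold, and in GCDC all 8 lay within it. Of all probes compared, 13.5% rose in serum depletion and 13.0% in GCDC. *Ttr* rose 7.82-fold in serum depletion, with a level of 288 there and 50.4 in GCDC, against 36.9 in control. *Serpina1a* also rose in serum depletion. *Hnf4a* (133 in serum depletion, 108 in GCDC and 135 in control) and *Fgb* (104, 83.4 and 55.5) lay within 2-fold. *Alb* was below the brightest negative control spot in serum depletion, at 2.34. The part of these markers in the values of the IL-1 family was not tested. *Ptprc*, the common leukocyte antigen, stayed below the brightest negative control spot on all 3 arrays, and the macrophage marker *Adgre1* was valid on none. Of the other macrophage markers, *Cd14*, *Csf1r*, *Cd68*, *Clec4f* and *Cx3cr1* were above that spot on every array. *Itgam* and *Marco* were above it on none, and *Lyz2* was below it in control, at 2.17. *Cd14* was at 2278 in serum depletion, 2792 in GCDC and 1469 in control. In the same order *Csf1r* was at 45.1, 52.1 and 42.1 and *Cd68* at 43.8, 63.5 and 42.5. *Cd14*, *Csf1r* and *Cd68* lay within 2-fold in both treatments.

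The promoters of the 4 genes that passed 2-fold in at least 1 treatment well above background are shown, so that the starts of genes that moved apart can be compared. Each window runs from 250 bases before to 50 bases after a RefSeq gene start in GRCm38.p6, 5′ to 3′, with matches to the motifs searched in capitals.
Il18, chr9:50554450-50554749, plus strand: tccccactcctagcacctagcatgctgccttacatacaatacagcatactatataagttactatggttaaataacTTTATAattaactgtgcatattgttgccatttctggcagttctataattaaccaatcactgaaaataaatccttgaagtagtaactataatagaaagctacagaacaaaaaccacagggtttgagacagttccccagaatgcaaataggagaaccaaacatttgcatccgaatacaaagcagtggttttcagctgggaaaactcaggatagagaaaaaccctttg
Il1rn, first of its 3 starts, chr2:24336610-24336909, plus strand: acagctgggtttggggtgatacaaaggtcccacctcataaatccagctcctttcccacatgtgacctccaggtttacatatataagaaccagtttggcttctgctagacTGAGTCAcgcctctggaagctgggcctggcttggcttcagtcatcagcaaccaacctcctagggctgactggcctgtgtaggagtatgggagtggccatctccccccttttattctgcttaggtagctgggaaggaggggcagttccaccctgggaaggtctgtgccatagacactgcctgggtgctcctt
Il33, first of its 2 starts, chr19:29924863-29925162, plus strand: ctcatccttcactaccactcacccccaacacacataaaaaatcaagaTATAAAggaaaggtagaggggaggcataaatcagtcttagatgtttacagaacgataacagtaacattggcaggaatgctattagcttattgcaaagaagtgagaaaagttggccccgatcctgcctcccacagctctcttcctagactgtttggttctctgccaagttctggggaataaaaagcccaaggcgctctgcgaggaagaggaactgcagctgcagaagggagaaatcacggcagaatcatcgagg
Il33, the other start, chr19:29945540-29945839, plus strand: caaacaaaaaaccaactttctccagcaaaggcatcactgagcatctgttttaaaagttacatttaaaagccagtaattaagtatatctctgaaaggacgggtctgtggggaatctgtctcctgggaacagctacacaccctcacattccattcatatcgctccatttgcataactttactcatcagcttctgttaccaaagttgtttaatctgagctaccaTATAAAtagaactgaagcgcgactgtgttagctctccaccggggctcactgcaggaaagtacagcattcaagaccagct
Il1a, chr2:129309923-129310222, minus strand: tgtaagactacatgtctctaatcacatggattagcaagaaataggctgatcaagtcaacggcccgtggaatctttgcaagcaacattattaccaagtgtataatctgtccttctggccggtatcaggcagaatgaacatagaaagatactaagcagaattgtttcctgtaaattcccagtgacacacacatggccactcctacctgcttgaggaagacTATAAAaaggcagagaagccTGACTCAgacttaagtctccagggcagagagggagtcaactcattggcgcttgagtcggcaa
The capitals mark the TATA box, searched as TATAAA, which appears as its reverse complement in *Il18*. They also mark the AP-1 motif, searched as TGANTCA. In *Il1a* a TATA box began 32 bases before the start and an AP-1 match 12 bases before it, and in *Il1rn* an AP-1 match began 141 bases before the first start. The other *Il33* start had a TATA box 29 bases before it, whereas the match at the first *Il33* start lay 203 bases before it and that of *Il18* 175 bases before it, on the opposite strand. The STAT motif (TTCNNNGAA) and the NF-κB motif, searched like the others on both strands, had no match in these 5 windows. All 10 genes had 15 windows, of which 2 held the AP-1 motif, 6 the TATA box, 1 the STAT motif (*Il1r2*) and 1 the NF-κB motif (the other start of *Il1r1*). Of all 32851 RefSeq windows of 300 bases, 7.81% held the AP-1 motif, 13.6% the TATA box, 8.30% the STAT motif and 4.51% the NF-κB motif. A match is a match of letters and no evidence of binding.

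*Il18* was the one IL-1 family cytokine that rose in both treatments. Its level was 661 in serum depletion and 423 in GCDC, against 183 in control. This is a rise of 3.61-fold in serum depletion (log2 ratio 1.85, range 1.84 to 1.86) and of 2.31-fold in GCDC (1.21, range 1.20 to 1.22). Both treated arrays thus lay above the control array, with serum depletion highest. In bulk RNA such as this, fewer cells of a type and less RNA per cell cannot be told apart, here and at every gene below. Of all probes compared, 13.5% rose more than 2-fold in serum depletion and 13.0% in GCDC, and among probes in the brightest 20% of the control array, where *Il18* lies, 22.2% and 22.5% did. By size its ratio stood at place 511 from the highest of 19809 probes in serum depletion and at place 1658 of 20087 in GCDC. The rise in serum depletion stayed past 2-fold under all 7 scalings between arrays (log2 ratios 1.38 to 2.01). The rise in GCDC stayed past it under 3 of 7 (0.56 to 1.28).

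The other inflammasome product, *Il1b*, was nearly level. It was at 11.2 in serum depletion and 12.3 in GCDC, against 8.94 in control, with log2 ratios of 0.32 (range -0.02 to 0.66) and 0.46 (range 0.16 to 0.76). Its sign turned when the arrays were not scaled, at -0.13 and -0.19. *Casp1*, the protease that matures both cytokines, was at 12.8 in serum depletion and 8.19 in GCDC, against 8.62 in control, a log2 ratio of 0.58 (range 0.26 to 0.90) and of -0.07 (range -0.46 to 0.30). Neither gene passed 2-fold in either treatment.

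**Figure D1:**
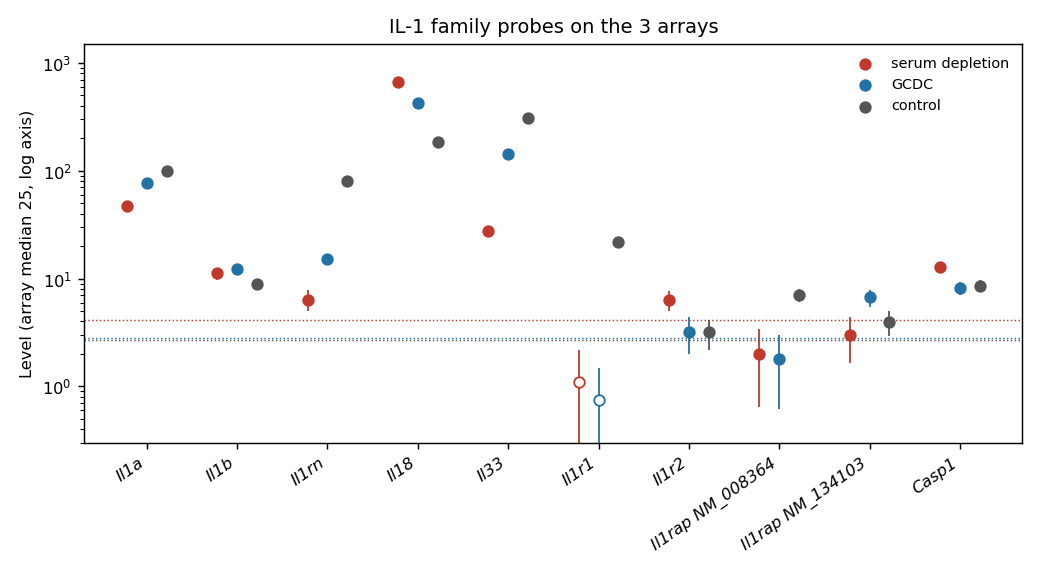
Levels of the 10 IL-1 family probes on the 3 arrays (log axis, array median 25), 1 point per array in the order serum depletion, GCDC, control; bars are 2 SD of the blanks, hollow points are not valid, and dotted lines mark the brightest negative control spot of each array. *Il18* stands highest in serum depletion, and *Il1rn*, *Il33* and *Il1r1* stand highest in control.

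*Il1rn*, the antagonist, fell in both treatments. It was at 6.39 in serum depletion and 15.2 in GCDC, against 79.9 in control. It was 12.5-fold lower in serum depletion (log2 ratio -3.64, range -4.01 to -3.35) and 5.26-fold lower in GCDC (-2.39, range -2.53 to -2.27). Falls of more than 2-fold were seen at 11.1% of all probes in serum depletion and at 8.51% in GCDC. Among probes with control levels of 44.7 to 154, where *Il1rn* lies, 17.3% and 13.0% fell. Among all probes compared *Il1rn* stood at place 51 from the lowest of 19809 in serum depletion and at place 220 of 20087 in GCDC. The fall stayed past 2-fold under all 7 scalings, at log2 ratios of -4.09 to -1.37 in serum depletion and -3.04 to -1.13 in GCDC. In both, the value closest to 0 came with normexp correction and its offset.

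*Il33*, the alarmin of epithelium and endothelium, also fell in both, but by unequal amounts. Its level was 27.7 in serum depletion and 143 in GCDC, against 310 in control. The falls were 11.2-fold in serum depletion (log2 ratio -3.48, range -3.56 to -3.41) and 2.16-fold in GCDC (-1.11, range -1.13 to -1.10). Set directly against each other, serum depletion lay 5.17-fold below GCDC (log2 ratio -2.37, range -2.46 to -2.29), at place 14 from the lowest of 19751 probes. Over all probes 2.92% lay more than 2-fold lower in serum depletion than in GCDC and 2.20% higher. The gap at *Il33* was past 2-fold under all 7 scalings (-2.37 to -1.30), and it compares 2 arrays, with no test of the treatments. *Il1rn* was 2.38-fold lower in serum depletion than in GCDC (-1.25, range -1.70 to -0.85), past 2-fold under 6 of 7 scalings and at -0.24 with normexp.

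*Il1a*, the cell-bound alarmin, was at 47.5 in serum depletion and 76.4 in GCDC, against 98.8 in control. It passed 2-fold narrowly in serum depletion, at 2.08-fold lower (log2 ratio -1.06, range -1.11 to -1.001), and not in GCDC (-0.37, range -0.41 to -0.33). Among probes with control levels of 44.7 to 154, where *Il1a* lies, 17.3% fell in serum depletion and 13.0% in GCDC. The ratio of *Il1a* was negative under all 7 scalings in both treatments, and past 2-fold under 5 of 7 in serum depletion and 1 of 7 in GCDC. All 3 alarmin and antagonist genes, *Il1a*, *Il33* and *Il1rn*, shared the order control, GCDC, serum depletion from high to low, and *Il18* had the opposite order. Both treatments share 1 control array, so a high or low control value moves their ratios together.

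**Figure D2:**
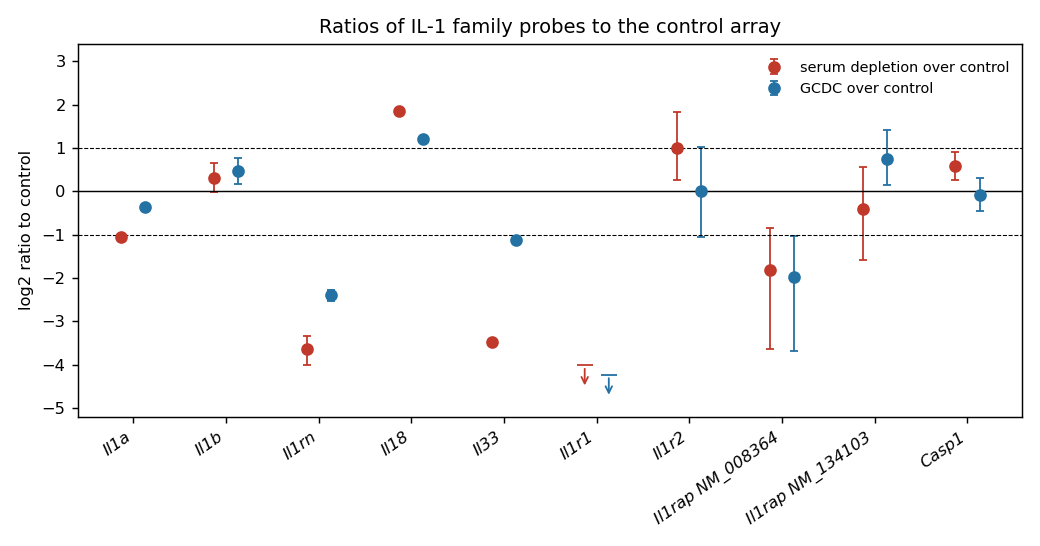
Log2 ratios of the 10 IL-1 family probes to the control array in serum depletion (red) and GCDC (blue), with bars for a shift of both levels by 2 SD of the blanks; arrows are limits for *Il1r1*, which was not valid on the treated arrays, and dashed lines mark 2-fold. *Il1rn* and *Il33* lie below the lower dashed line in both treatments and *Il18* above the upper one.

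Among the receptors, *Il1r1*, the signalling receptor of IL-1, was measured in control BECs alone. Its level was 22.03 in control, 44.1 SD above the blanks, while its signals in serum depletion and GCDC were 1.60 and 1.26 SD above them and not valid. Against the lowest valid level of each treated array it was at least 16.1-fold lower in serum depletion and at least 18.7-fold lower in GCDC. Those levels were 1.37 in serum depletion and 1.18 in GCDC, below the brightest negative control spots at 4.10 and 2.80. Bounds set on these spots would be smaller. Of the probes valid in control and not on the treated array, 18.6% of 1138 were at least 2-fold lower in serum depletion and 20.2% of 857 in GCDC. With the control level of *Il1r1* in view, probes above a level of 20 in control were counted, and 0.0979% were not valid in serum depletion, 0.0534% not in GCDC, and 4 of 11232 (0.0356%) on neither treated array. These were *Il1r1*, *Atp7b*, a copper transporter, *Paxip1*, a factor of DNA damage signalling, and *Heatr5a*. The value rests on 1 probe, and other transcripts of *Il1r1* that this probe does not match are not analysed here.

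*Il1rap*, the shared accessory chain, had 2 probes that disagreed. The probe designed on the transcript NM_008364 was at 2.01 in serum depletion and 1.80 in GCDC, against 7.03 in control. Both treated values lay below the brightest negative control spot, and the log2 ratios, -1.81 (range -3.64 to -0.84) in serum depletion and -1.97 (range -3.69 to -1.02) in GCDC, had wide ranges. With normexp they were -0.16 and -0.17, and the fall was lost. The probe on NM_134103, with the higher mean level, was at 3.01 in serum depletion and 6.68 in GCDC, against 3.96 in control, with log2 ratios of -0.40 (range -1.59 to 0.57) and 0.76 (range 0.15 to 1.41). It did not pass 2-fold, and which transcripts account for the disagreement was not tested. *Il1r2*, the decoy, was at 6.35 in serum depletion and 3.19 in GCDC, against 3.17 in control. It reached 2.01-fold in serum depletion (log2 ratio 1.004, range 0.26 to 1.83) and 1.01-fold in GCDC (0.01, range -1.05 to 1.01), close to the background, and passed 2-fold in serum depletion under 2 of 7 scalings.

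With 1 probe per gene, 8 of the 9 genes were compared in each treatment. In serum depletion 2 rose (*Il18* and *Il1r2*), 3 fell (*Il1a*, *Il1rn* and *Il33*) and 3 lay within 2-fold, and in GCDC 1 rose (*Il18*), 2 fell (*Il1rn* and *Il33*) and 5 lay within. Over all probes 13.5% rose and 11.1% fell in serum depletion, and 13.0% rose and 8.51% fell in GCDC. The median of their log2 ratios was -0.04 for serum depletion and -0.03 for GCDC, against 0.16 and 0.23 over all probes compared. Serum depletion lay more than 2-fold below GCDC at 3 genes (*Il1rn*, *Il33* and *Il1rap*) and above it at none, where 2.92% of all probes lay below and 2.20% above. The *Il1rap* call rests on the probe for NM_134103, whose level in serum depletion was below the brightest negative control spot (log2 ratio -1.15, range -2.26 to -0.33), and the other *Il1rap* probe was at 0.16. Without scaling, with a limit of 5 SD or above the brightest negative control spot the count was 2. Over all probes 1.58%, 2.74% and 2.32% then lay below, in that order of settings. The genes also differed in position and span. *Il1rn*, *Il1a* and *Il1b* lie on chromosome 2, where *Il1a* (129299609 to 129310186) and *Il1b* (129364569 to 129371164) are neighbours in GRCm38.p6 coordinates, and *Il1r1* and *Il1r2* lie on chromosome 1. Long genes fell more often than short ones on both treated arrays. Among the 20% of genes with the longest spans, which holds *Il1r1* (93722 bases) and *Il1rap* (148620 bases), 16.7% fell in serum depletion and 14.4% in GCDC, against 4.43% and 2.70% among the 20% with the shortest spans. *Il18* (27142 bases), *Il1rn* (14632 bases) and *Il33* (35606 bases) lie in the middle 20% (*Il18* and *Il1rn*) and in the next longer 20% (*Il33*), where 11.4% and 16.7% fell in serum depletion and 7.85% and 12.6% in GCDC. The part of gene span in these results was not tested.

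**Figure D3:**
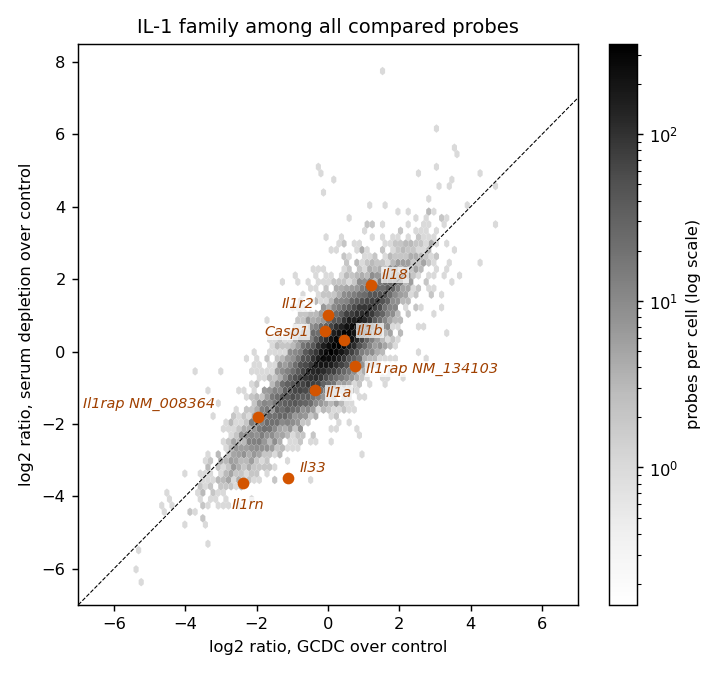
Log2 ratios to control in GCDC (horizontal axis) and serum depletion (vertical axis) for all probes valid on the 3 arrays (grey, darker with more probes) and for 9 IL-1 family probes (orange); the dashed line marks equal ratios, and both axes share the control array. *Il33*, at -1.11 and -3.48, lies farthest from the dashed line among the IL-1 family probes.

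The IL-18 receptor chains moved apart in serum depletion. *Il18r1*, the binding chain, was at 12.4 in serum depletion and 43.6 in GCDC, against 60.0 in control, a log2 ratio of -2.27 and of -0.46. *Il18rap*, the signalling chain, was at 69.0 in serum depletion and 15.4 in GCDC, against 24.3 in control, a log2 ratio of 1.504 and of -0.66. Thus 1 chain fell and the other rose in serum depletion, and both lay within 2-fold in GCDC. With normexp neither call in serum depletion was kept, and without scaling 2 receptors of the list fell in GCDC, where 21.8% of all probes fell. *Sigirr*, an inhibitory receptor of the family, was within 2-fold (0.17 and 0.41), and the remaining 3 receptors listed, *Il1rl2*, *Il1rapl1* and *Il1rapl2*, were not valid in control. Of 5 other ligand and binding protein genes on the array, *Il36b* and *Il36g* were compared and lay within 2-fold in both treatments, while *Il18bp*, which neutralises IL-18, was valid in control alone, at 1.55, below the brightest negative control spot.

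Of 17 inflammasome genes on the array, 2 of 17 compared rose and 3 fell in serum depletion, and 1 of 16 rose and 3 fell in GCDC, beside 13.5% and 11.1% of all probes in serum depletion and 13.0% and 8.51% in GCDC. Without scaling 5 fell in serum depletion and 6 in GCDC, where 19.7% and 21.8% of all probes fell. *Nlrc4*, the sensor that works with NAIP proteins on bacterial ligands, was at 5.06 in serum depletion and 7.74 in GCDC, against 46.1 in control, with log2 ratios of -3.19 and -2.58. *Nek7*, a kinase that NLRP3 needs for activation, fell in both (-1.74 and -1.30), as did the pore protein gene *Gsdme* (-1.19 and -1.76), to levels below the brightest negative control spot. *Ninj1*, which ruptures the membrane of dying cells, rose in both, to 625 in serum depletion and 454 in GCDC, against 144 in control (2.12 and 1.66). *Casp4*, the caspase that senses intracellular endotoxin, was at 16.2 in serum depletion and 2.72 in GCDC, against 2.31 in control. It rose in serum depletion (2.81), while its GCDC and control values lay below the brightest negative control spot. *Nlrp3* (0.31 and -0.27), *Aim2* (0.14 and 0.32), the adaptor *Pycard* (-0.07 and 0.09) and the pore gene *Gsdmd* (-0.61 and -0.75) were within 2-fold in both treatments. For the list as a whole the medians were -0.04 (serum depletion) and -0.16 (GCDC).

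Of 18 genes of signalling close to the receptor, none rose, 5 fell in serum depletion and 4 fell in GCDC, and those 4 fell in both, where 11.1% of all probes fell in serum depletion and 8.51% in GCDC. The falls depended on the scaling, with 9 in serum depletion and 8 in GCDC without scaling, but 1 and 0 with normexp. Over all probes 19.7% fell in serum depletion and 21.8% in GCDC without scaling, and 4.00% and 3.02% with normexp. *Irak2*, a kinase of the IL-1 receptor complex, was at 3.57 in serum depletion and 6.60 in GCDC, against 18.8 in control (-2.40 and -1.51), the value in serum depletion being below the brightest negative control spot. The kinase genes *Mapk14* (-2.39 and -1.78) and *Map3k7* (-2.02 and -1.53) and the NF-κB regulator *Ikbkg* (-1.62 and -2.04) fell in both, and *Tab1*, a partner of MAP3K7, fell in serum depletion (-1.41 against -0.98 in GCDC). *Myd88* was at 0.91 and 0.15, *Irak1* at 0.44 and 0.68 and *Traf6* at -0.71 and -0.50, all within 2-fold. The medians of the list were -0.48 in serum depletion and 0.08 in GCDC, against 0.16 and 0.23 over all probes.

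Genes known to be induced by IL-1 did not move as a block. Serum depletion had 7 rises and 2 falls among 21 genes compared, and GCDC had 6 rises and 4 falls among 22, with medians of 0.35 and -0.16. Over all probes 13.5% rose and 11.1% fell in serum depletion, and 13.0% rose and 8.51% fell in GCDC. The balance turned without scaling, to 4 rises and 5 falls in serum depletion and 2 rises and 7 falls in GCDC. Over all probes 5.91% then rose and 19.7% fell in serum depletion, and 3.02% rose and 21.8% fell in GCDC. With normexp there were 3 rises and 2 falls in serum depletion and 2 of each in GCDC. Over all probes normexp gave 2.96% rises and 4.00% falls in serum depletion, and 2.19% and 3.02% in GCDC. *Ccl2*, *Ccl20*, *Csf2* and *Nfkbia*, the inhibitor of NF-κB, rose in both treatments, the last by 1.31 and 1.35 on the log2 scale. *Mmp13*, a collagenase, was at 84.3 in serum depletion and 3.66 in GCDC, against 3.12 in control. In the other direction *Ptgs2*, which makes prostaglandins, had log2 ratios of -1.03 and -1.55, and *Tnfaip3*, a brake on NF-κB, -1.39 and -1.18. *Cxcl1*, a neutrophil chemokine, was within 2-fold at 0.88 and -0.40. *Ccl2* was picked by the study on these arrays. The choice to name *Gsdme*, *Tab1*, *Nfkbia*, *Ptgs2*, *Tnfaip3* and the genes within 2-fold was made with their values in view.

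**Figure D4:**
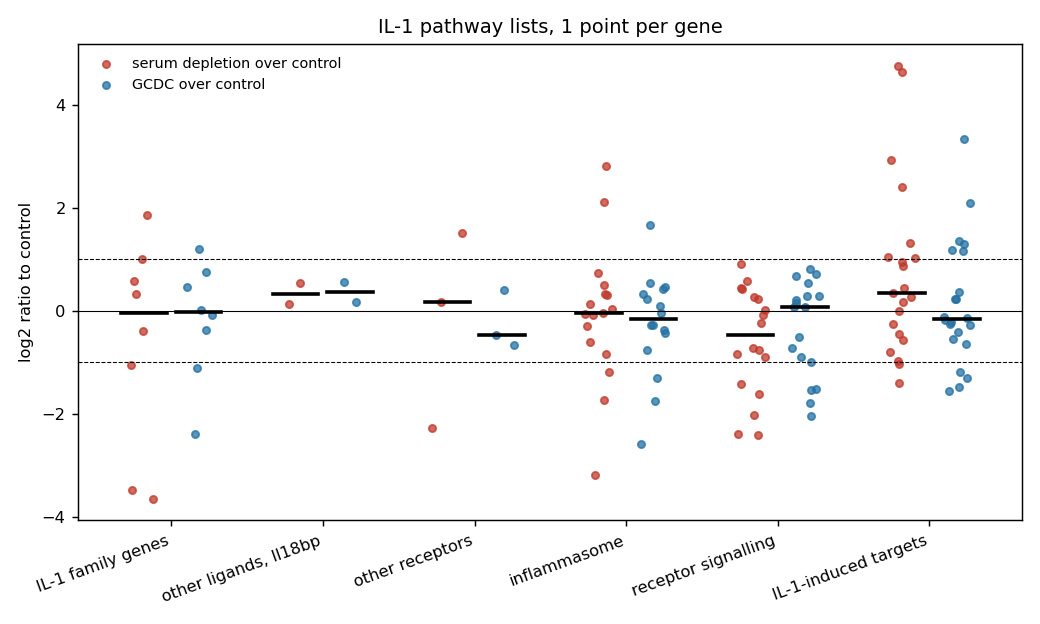
Log2 ratios to control of the IL-1 family genes and of 5 pathway lists, 1 point per gene with both levels valid, for serum depletion (red) and GCDC (blue); black bars are medians and dashed lines mark 2-fold. Signalling genes have 5 points below the lower dashed line in serum depletion and none above the upper one.

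Markers of cells that make IL-1 family cytokines were read in the same arrays. Of 10 macrophage markers, 6 in serum depletion, 6 in GCDC and 5 in control lay above the brightest negative control spot, with summed levels of 2388, 2929 and 1572, most of them from *Cd14*. None of the list fell, and *Cx3cr1* rose in serum depletion (1.23). Of 8 neutrophil markers 4, 5 and 6 lay above that mark, with summed levels of 171 in serum depletion, 106 in GCDC and 166 in control, and they moved both ways. *S100a8* rose in both (1.76 and 1.62). *Mpo* fell in serum depletion (-2.42), to a level below the brightest negative control spot. In GCDC *Mpo* was not valid, at least 9.39-fold lower than in control when set against the lowest valid level of that array. *Ly6g* fell in GCDC (-1.39), with a level of 112 in serum depletion and 49.2 in GCDC, against 129 in control. Of 7 endothelial markers 2 lay above the brightest negative control spot on each array, with summed levels of 83.2 in serum depletion, 89.0 in GCDC and 43.0 in control. *Kdr* rose in both treatments (1.26 and 1.31), and *Stab2* rose in GCDC (1.13) at a level below that mark. None of those compared fell, and *Pecam1* was below the mark on all 3 arrays. The part of all these markers in the family's values was not tested.

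**Figure D5:**
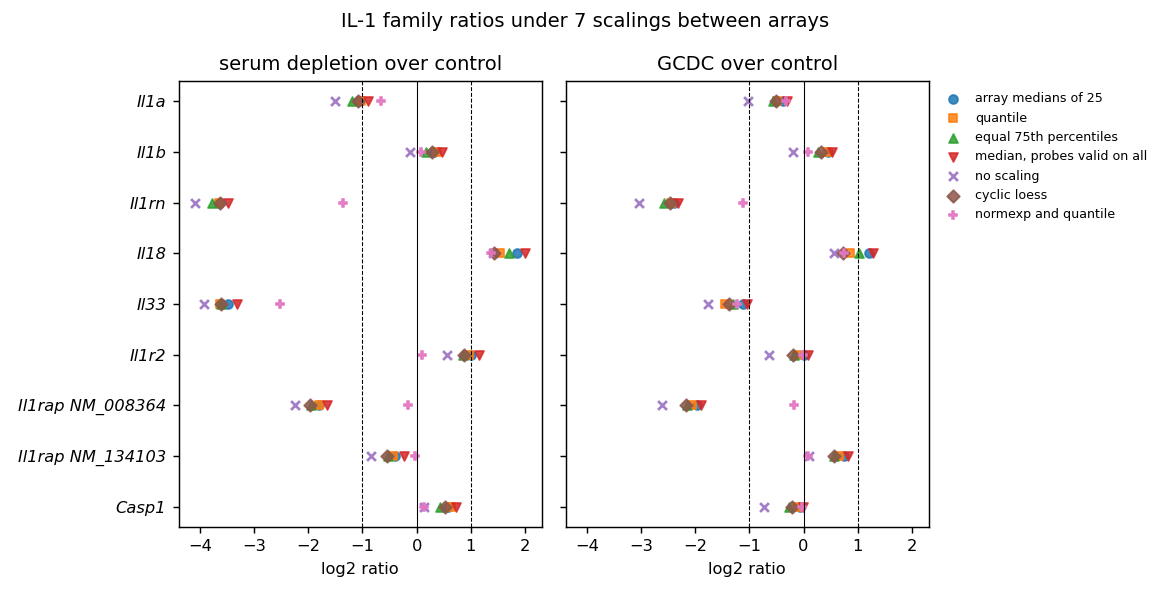
Log2 ratios of 9 IL-1 family probes to control under 7 scalings between arrays, in serum depletion (left) and GCDC (right); dashed lines mark 2-fold. *Il1rn* and *Il33* lie left of -1 under every scaling in both panels, and *Il18* lies right of 1 under every scaling in serum depletion and under 3 in GCDC.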

How the data were processed

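RNA of control, serum-depleted and GCDC-treated BECs was hybridised to 1 3D-Gene array each. The authors deposited the scanner output, the median intensity of each spot with no background subtracted, and a table of processed intensity with blanks subtracted, invalid probes empty and array medians of 25. Levels were recomputed from the scanner output. Blanks outside their 5th to 95th percentiles were dropped, the mean of the rest (58.7, 52.5 and 55.7 in serum depletion, GCDC and control) was subtracted, probes over 2 SD of the blanks were kept, and each array was scaled by 0.838, 0.964 and 0.615. The valid probes matched those of the deposited table on every array. Probes were named through the platform annotation (20690 of 23473 with 1 symbol). In counts a gene with several probes was read from its brightest one on average. Genes named from the pathway lists were the 4 with the largest mean change past 2-fold in each, apart from those said to be chosen later. That rule also did not select *Lcn2*, *Cxcl5* or the listed genes named as not valid on an array, such as *Il6*. The members and lists were chosen with earlier results of these data known. Of the listed genes *Irak4*, *Peli2*, *Chuk*, *Nfkb1*, *Nlrp1b*, *Naip1* and *Il36rn* are not analysed here. Steps were tested on simulated data. Python 3.11.15 with pandas 2.3.3 and R 4.3.3 with limma 3.58.1 were used.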

Additional observations from a re-analysis of the deposited data

How the results depend on the processing

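Under 12 other settings and 1 more chosen after seeing the data, which kept only probes above the brightest negative control spot, the number of falls stayed between 2 and 4 in serum depletion. In GCDC it was 2 or 3, except for 1 at a threshold of 4-fold. Rises in serum depletion numbered 1 in place of 2 under quantile normalization, no scaling, equal 75th percentiles, normexp correction (offset 50), cyclic loess and a limit of 5 SD, and 0 at 4-fold. Rises in GCDC numbered 0 in place of 1 under quantile normalization, no scaling, cyclic loess, normexp and 4-fold, and 2 at 1.5-fold. Genes higher in serum depletion than in GCDC numbered 1 in place of 0 under quantile normalization, cyclic loess, no scaling, equal 75th percentiles, scaling on the probes that all arrays measured, and no filter on validity, and 3 at 1.5-fold. Genes lower there numbered 1 in place of 3 under normexp and at 4-fold, 2 with no scaling, a limit of 5 SD or the negative control mark, and 4 at 1.5-fold. At 1.5-fold, 27.5% of all probes rose and 18.8% fell in serum depletion, and 29.3% and 15.5% in GCDC. At 4-fold these shares were 1.96% and 3.22% in serum depletion, and 1.27% and 2.07% in GCDC. Between serum depletion and GCDC, 7.02% lay higher and 12.0% lower at 1.5-fold, and 0.319% and 0.152% at 4-fold. No ratio past 2-fold changed its sign. A scaling by 1 factor per array shifts all ratios of a treatment alike, with a median over all probes of -0.28 in serum depletion and -0.41 in GCDC when none was used. Over all probes, 5.91% then rose and 19.7% fell in serum depletion (13.5% and 11.1% as reported), and 3.02% rose and 21.8% fell in GCDC (13.0% and 8.51% as reported). In GCDC quantile normalization gave 8.22% and 10.4%, equal 75th percentiles 8.58% and 11.1%, and cyclic loess 6.64% and 11.3%, and in serum depletion cyclic loess gave 8.73% and 13.2%, equal 75th percentiles 10.6% and 13.3%, and scaling on probes that all arrays measured 17.9% and 9.11%. Normexp gave 2.96% and 4.00% in serum depletion and 2.19% and 3.02% in GCDC. A limit of 5 SD gave 12.7% and 11.2% in serum depletion and 12.9% and 8.20% in GCDC. The negative control mark gave 13.7% and 10.7% in serum depletion and 12.7% and 8.37% in GCDC. No filter on validity gave 15.7% and 12.8% in serum depletion and 14.1% and 10.9% in GCDC. Between serum depletion and GCDC (2.20% higher and 2.92% lower as reported) no scaling gave 3.78% and 1.58%, quantile normalization 2.66% and 2.12%, and scaling on probes that all arrays measured 2.67% and 2.17%. For the same pair normexp gave 0.319% and 0.365%, a limit of 5 SD 1.56% and 2.74%, and the negative control mark 1.81% and 2.32%. No filter on validity gave 5.05% and 5.04%. No paired analysis was possible because each condition had 1 array. Dim probes (*Il1r2* and both *Il1rap* probes) limit what can be seen, and array differences cannot be told apart from treatment.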

Other observations

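*Il6*, a cytokine gene induced by IL-1, was not valid in serum depletion and was at 1.55 in GCDC, below the brightest negative control spot, against 3.83 in control. Against the lowest valid level in serum depletion, *Il6* was at least 2.80-fold lower there than in control. Its control level of 3.83 was itself below the brightest negative control spot of the serum depletion array, at 4.10. *Mpo*, a neutrophil enzyme, was at 2.06 in serum depletion and not valid in GCDC, against 11.1 in control. *Lcn2*, an iron-scavenging protein of epithelium, had a log2 ratio of 0.17 for serum depletion and 1.19 for GCDC, and the chemokine *Cxcl5* one of 0.35 and -1.47. *Il1rapl2* was valid in serum depletion alone, at 2.14, below the brightest negative control spot of that array.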
